A study of Mus musculus with 6 samples.

Results

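The genes examined here make, remodel and break down the phospholipids of cell membranes. They are 34 of the 22964 genes in a table of estimated RNA counts from sorted lymphatic endothelial cells of the meninges, the lining of the drainage vessels in the membranes around the brain. The members were listed by name, by a rule that used no measured value but with earlier results of these data known. All 34 were found by symbol. Of these, 33 passed the filter on low counts. By role, 6 act on the glycerol backbone and 10 on the head group, which gives 16 synthesis genes. Another 10 are phospholipases, taken as breakdown genes, 4 reattach acyl chains, and 4 act on lipid messengers or carry phospholipids. The old group was 3 samples from wild-type C57BL/6J males aged 20 to 24 months, and the young group was 3 samples from wild-type C57BL/6J males aged 2 to 3 months. All mice were untreated, and CD45-CD31+PDPN+ cells were collected by flow cytometry. Animals came from Jackson Labs or from the NIH/NIA, and the sources used here do not tie samples to an origin, so origin and age cannot be told apart. Nor do they say whether a sample was 1 mouse or a pool. The p-values therefore set the age difference against the spread of these samples only, and that spread may be technical.

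Phospholipids are built by acylation of a glycerol phosphate to phosphatidic acid, which is either dephosphorylated to diacylglycerol or activated with CTP. Choline and ethanolamine, activated in turn, are joined to diacylglycerol to give phosphatidylcholine and phosphatidylethanolamine, while the CTP branch leads to phosphatidylinositol and cardiolipin. Phospholipases A2 cut off an acyl chain, phospholipases C cut off the phosphorylated head group and leave diacylglycerol, and phospholipases D leave phosphatidic acid. In endothelium the products also act as messengers downstream of growth factor receptors such as those for VEGF.

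The samples held 14285794 to 21043945 estimated counts. Levels are given in CPM, the count scaled to a common library size after TMM adjustment. Old sample 1 stood apart, with correlations of log2 CPM over genes of 0.679 to 0.698 with the other 5 samples, against 0.710 to 0.814 among those 5. All 7 lymphatic markers listed, Prox1 and Lyve1 among them, had counts in every sample and summed to 15360 to 18520 CPM in old and 9777 to 12190 CPM in young samples. The 15 macrophage markers summed to 906.5 to 2582 CPM in old samples and 898 to 5260 CPM in young samples, with old sample 1 and young sample 1 lowest. Mrc1 alone gave 679 CPM of the sum in old sample 1 and 401 CPM of that in young sample 1. All but Cd163 in old sample 1 and Tyrobp in old sample 2 had a count in every sample. Fibroblast markers summed to 2281 to 2465 CPM in old and 4521 to 6866 CPM in young samples, so these ages did not overlap. In such sorted bulk samples, fewer cells of a type and less RNA per cell cannot be told apart.

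No phospholipid gene passed the test over all genes. In edgeR's quasi-likelihood test with Benjamini-Hochberg adjustment over 15394 genes, 0 of 33 members were called, where 0.00% of all genes were called, and the smallest adjusted p of a member was 0.888. DESeq2 called 130 of all genes and limma-voom 3, and neither called a member. At an unadjusted p under 0.05, 3 members stood out, which is 9.09% of members beside 5.56% of all genes. Plcg1 was higher in old cells, as were 2.86% of all genes at that p, and Pla2g15 and Dgkz were lower, as were 2.70%. Samples of the ages did not overlap for 6 members, or 18.2%, beside 12.0% of all genes: Etnk1, Pcyt1a and Plcg1 were above the young range in all 3 old samples, as were 5.56% of all genes, and Lpin2, Pla2g15 and Dgkz were below it, as were 6.44%. Of the 33, 18 had a positive and 15 a negative log2 fold change, a share of 54.5% positive beside 51.0% of all genes. Their median log2 fold change was 0.24, with quartiles of −0.40 and 0.53, beside 0.02, with quartiles of −0.62 and 0.60, over all genes tested.

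**Figure D1:**
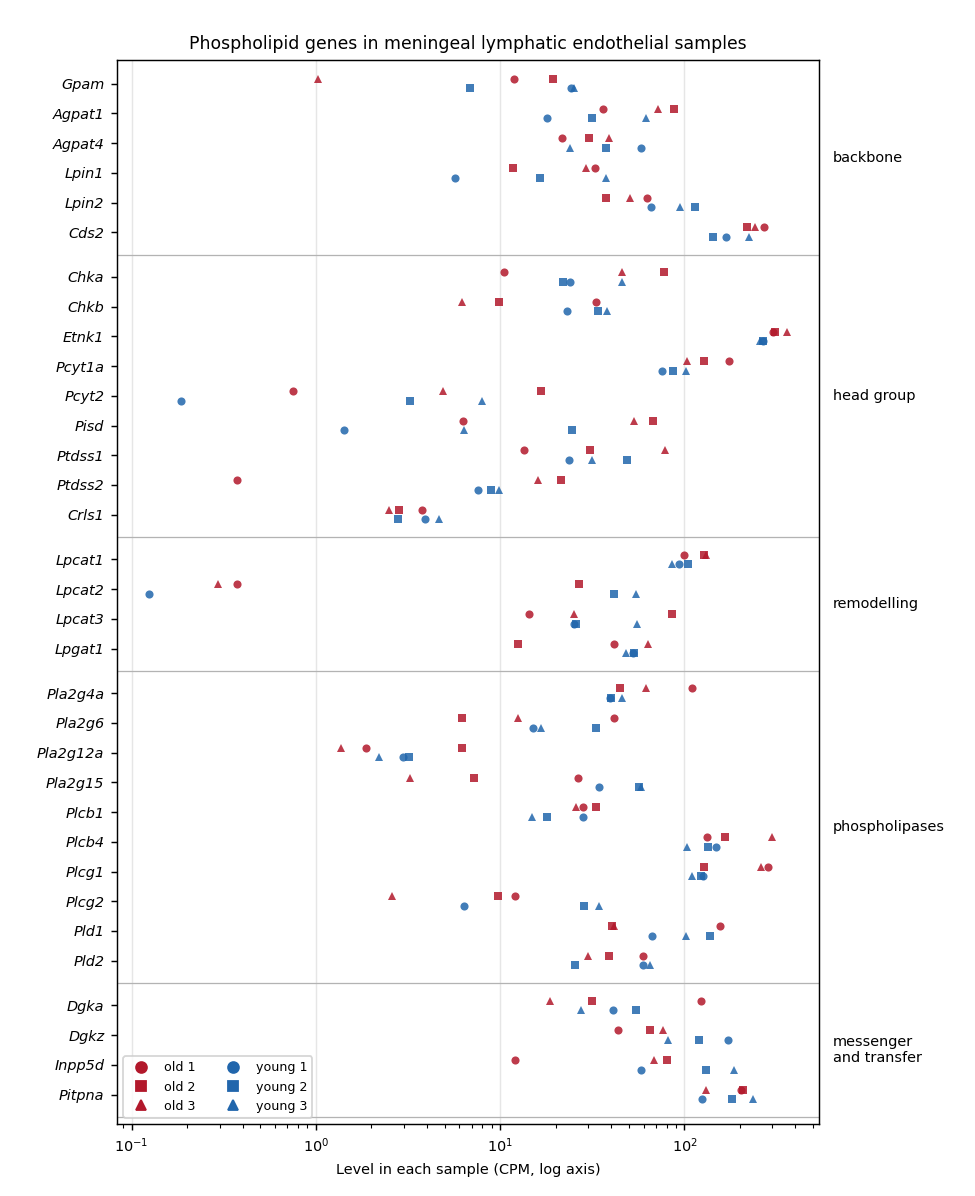
Level of each tested member in each sample in CPM on a log axis, with old samples in red above young samples in blue in each row and symbols for the sample number. Levels ran from 2.97 CPM for Pla2g12a to 294 CPM for Etnk1 as means over 6 samples, and samples of 1 age lay furthest apart for Lpcat2.

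The members differed widely in level and in how well their samples agreed. The mean over 6 samples was above 100 CPM for 7 members, between 20 and 100 CPM for 20, and under 20 CPM for 6. Per kilobase of merged exon, the highest mean was that of Pitpna, at 43.8 CPM per kilobase, followed by Cds2, Lpcat1, Plcg1 and Etnk1, at 23.1, 23.0, 21.9 and 20.8 CPM per kilobase. The lowest tested was Pla2g12a, at 0.806 CPM per kilobase. The SD within an age on the log2 scale, with 0.5 CPM added, had a median of 0.839 over members and 0.900 over all genes tested, and ran from 0.102 for Etnk1 to 3.28 for Lpcat2. More than 4-fold between the lowest and the highest sample was found for 16 members among old samples and for 5 members among young samples.

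Pemt, the methyltransferase that turns phosphatidylethanolamine into phosphatidylcholine and is known mainly from liver, was the member that did not pass the filter. It had 0, 0 and 81 estimated counts in the old samples and 0, 0 and 5 in the young samples. Its counts lay in sample 3 of each age.

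**Figure D2:**
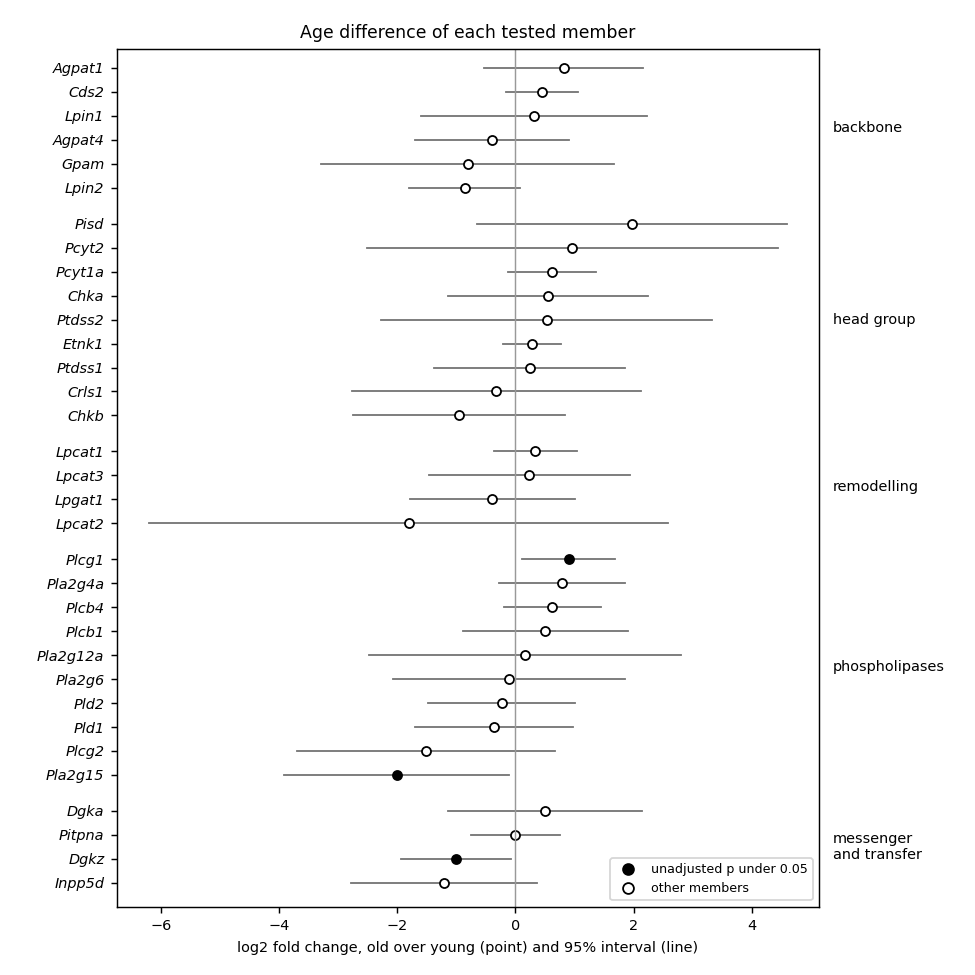
Log2 fold change of old over young cells for each of the 33 tested members, by role, with its 95% interval from edgeR's quasi-likelihood fit. Filled points mark the 3 members with an unadjusted p under 0.05, Plcg1 to the right of 0 and Pla2g15 and Dgkz to the left, and none of the 33 passed after adjustment.

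The promoters of 3 members are printed because they belong to the phospholipases with the highest and the lowest fitted log2 fold change and to the rate-setting enzyme of phosphatidylcholine synthesis. They come from RefSeq starts in GRCm38.p6, 5′ to 3′ on the gene's strand, and cover the 250 bases before the start. Capitals mark a CCAAT box (CCAAT), a GC box (GGGCGG) or the sterol regulatory element (TCACNCCAC), on either strand.
Plcg1, chr2:160731060-160731309, plus strand: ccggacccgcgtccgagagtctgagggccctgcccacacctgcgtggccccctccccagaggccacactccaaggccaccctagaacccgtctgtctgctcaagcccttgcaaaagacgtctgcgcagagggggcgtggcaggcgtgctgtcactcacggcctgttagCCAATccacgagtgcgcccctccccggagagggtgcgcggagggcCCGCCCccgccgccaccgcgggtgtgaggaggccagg
Pla2g15, chr8:106150104-106150353, plus strand: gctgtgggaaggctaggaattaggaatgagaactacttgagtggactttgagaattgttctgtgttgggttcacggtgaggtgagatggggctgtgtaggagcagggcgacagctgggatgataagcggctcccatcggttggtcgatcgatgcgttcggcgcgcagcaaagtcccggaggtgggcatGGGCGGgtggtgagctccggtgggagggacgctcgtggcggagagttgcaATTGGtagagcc
Pcyt1a, chr16:32430671-32430920, plus strand: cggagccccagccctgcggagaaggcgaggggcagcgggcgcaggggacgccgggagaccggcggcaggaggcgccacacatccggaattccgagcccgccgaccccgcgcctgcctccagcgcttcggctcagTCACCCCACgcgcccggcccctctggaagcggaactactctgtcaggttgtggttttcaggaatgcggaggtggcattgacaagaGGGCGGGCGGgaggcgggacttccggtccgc
Those of Plcg1 and Pla2g15 each hold 1 CCAAT box and 1 GC box. The start used for Pla2g15 lies 45 bases before the gene's start in the GENCODE annotation. Unlike those of Plcg1 and Pcyt1a, its first bases were not found in a GENCODE transcript of the gene. That of Pcyt1a, at the most upstream of its 3 listed starts, holds 2 GC boxes that overlap and 1 sterol regulatory element that begins at base −116. This element, which binds the SREBP factors of lipid synthesis, was found in 1.05% of 32851 promoters of that length. It was in 3 of the 51 promoters listed for members, or 5.88%. Among 32 members with a listed promoter, it was also in Pla2g12a. A CCAAT box was in 33.8% and a GC box in 32.7% of all promoters, and in 37.3% and 58.8% of the 51 listed for members. The median GC content was 60.0% in members' promoters and 52.4% in all. Of the other motifs searched on both strands, the shares in all promoters were 0.785% for the lysosomal CLEAR core (TCACGTGA), 6.02% for the E-box that it contains (CACGTG), 12.4% for TATAAA, 6.91% for the ETS motif CCGGAAG, 6.75% for the AP-1 motif TGANTCA, 2.98% for the interferon-stimulated response element, 0.782% for the NRF1 motif and 0.387% for the ERR motif TCAAGGTCA. In the 51 promoters of members the shares, in the same order, were 0.0%, 7.84%, 7.84%, 11.8%, 3.92%, 1.96%, 0.0% and 0.0%. Of these motifs, the printed stretches hold CCGGAAG in that of Pcyt1a, on the minus strand, and no other.

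Backbone genes showed no common direction, with 3 of 6 higher and 3 lower in old cells and a median log2 fold change of −0.04. Cds2, which activates phosphatidic acid with CTP, had the highest level of the 6. It had 271, 219.6 and 241 CPM in old samples 1, 2 and 3, against 168, 144 and 223 CPM in young samples 1, 2 and 3. Young sample 3 lay inside the old range, and the log2 fold change was 0.45 (SE 0.27) with a 95% interval of −0.16 to 1.06.

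Agpat1, an acyltransferase of the endoplasmic reticulum that makes phosphatidic acid, had 36.0, 87.6 and 71.7 CPM in the old samples, against 17.9, 31.6 and 61.6 CPM in the young samples. The ages overlapped, and the log2 fold change was 0.81 (SE 0.59). Its relative Agpat4 had 21.5 to 38.8 CPM in old and 24.0 to 58.0 CPM in young samples. Gpam, the mitochondrial enzyme that adds the first acyl chain, had 11.9, 19.3 and 1.03 CPM in the old samples, against 24.2, 6.86 and 25.3 CPM in the young samples. The lowest value of Gpam was in old sample 3 and its log2 fold change, −0.81 (SE 1.09), was smaller than its SE.

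Lpin2, a lipin that dephosphorylates phosphatidic acid to diacylglycerol, was the backbone gene whose ages did not overlap. It had 62.9, 37.4 and 50.9 CPM in the old samples, against 65.6, 114 and 94.0 CPM in the young samples, with every old sample below every young one. Its log2 fold change was −0.86 (SE 0.41), with unadjusted p = 0.0690 in edgeR's quasi-likelihood test and a 95% interval of −1.79 to 0.08. That p was under 0.05 in 3 of 14 alternatives, at 0.0368 with library size as the only scaling, 0.0437 without old sample 1 and 0.0487 without young sample 1, all by edgeR. Lpin1, the lipin that also acts as a coactivator in the nucleus, had 11.8 to 32.6 CPM in old and 5.71 to 37.3 CPM in young samples, so its ages overlapped. Lpin3, which is not a member and was looked at after the values of Lpin2 were seen, had 29.1, 29.6 and 47.9 CPM in the old samples, against 15.4, 20.2 and 12.8 CPM in the young samples. All old samples lay above the young range for Lpin3, with a log2 fold change of 1.14 (SE 0.62) and unadjusted p = 0.0981 in edgeR's quasi-likelihood test. Neither lipin passed after adjustment over all genes.

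Head group genes had 7 of 9 tested members higher in old cells and a median log2 fold change of 0.53, and none had an unadjusted p under 0.05. Along the choline branch, Chka, a choline kinase, had 10.6 to 77.4 CPM in old and 21.8 to 45.6 CPM in young samples. Chkb, the other choline kinase, had 33.2, 9.88 and 6.20 CPM in the old samples, against 23.0, 34.1 and 38.2 CPM in the young samples. Old samples 2 and 3 were below all young samples for Chkb while old sample 1 was among them, and its estimate is uncertain because 47.9% of its 31-base words are shared on the same strand with other annotated genes, chiefly Gm44502. Pcyt1a, the CTP-transferring enzyme that sets the rate of phosphatidylcholine synthesis, had 174, 128 and 104 CPM in the old samples, against 75.9, 86.4 and 102 CPM in the young samples. All old samples lay above the young ones, by as little as 103.8 against 101.9 CPM. The log2 fold change of Pcyt1a was 0.62 (SE 0.33), with unadjusted p = 0.0955 in edgeR's quasi-likelihood test, against 0.39 without old sample 1.

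Along the ethanolamine branch, Etnk1, the ethanolamine kinase, had the highest level in CPM of all members and the smallest spread. It had 302, 308 and 360.4 CPM in the old samples, against 268, 268 and 258 CPM in the young samples. The 3 young samples lay within 1.04-fold of each other and all old samples lay above them, with a log2 fold change of 0.29 (SE 0.22) and a 95% interval of −0.20 to 0.78. Pcyt2, the CTP-transferring enzyme of this branch, had 0.748, 16.7 and 4.88 CPM in the old samples, against 0.186, 3.25 and 8.01 CPM in the young samples. Its highest and lowest samples differed 89.8-fold, and sample 1 was the lowest at both ages.

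Phosphatidylserine is made by exchange of head groups and turned into phosphatidylethanolamine in mitochondria. Ptdss1, which exchanges the choline of phosphatidylcholine, had 13.5 to 78.8 CPM in old and 23.6 to 48.8 CPM in young samples, and Ptdss2, which exchanges ethanolamine, had 0.374 to 21.4 CPM in old and 7.57 to 9.81 CPM in young samples. Pisd, the mitochondrial decarboxylase, had 6.29, 67.4 and 53.5 CPM in the old samples, against 1.43, 24.6 and 6.35 CPM in the young samples. Its log2 fold change of 1.97 (SE 1.15) was the largest positive one among members, with a 95% interval of −0.65 to 4.60, and old sample 1 lay below young sample 2. Without young sample 2 the log2 fold change of Pisd was 3.44, with unadjusted p = 0.0332 by edgeR, and over 14 alternatives it ran from 1.45 to 3.44. Pisd is uncertain, since 21.6% of its 31-base words occur in other genes on the same strand, chiefly Gm20671. The table also lists its pseudogenes Pisd-ps1 and Pisd-ps2. Summed over Pisd and these pseudogenes, the level was 102.5, 151 and 100.7 CPM in the old samples and 36.2, 93.4 and 49.3 CPM in the young samples. The ages did not overlap for that sum, while they did for each of the 3 genes by itself. Crls1, the cardiolipin synthase, had 2.49 to 3.74 CPM in old and 2.79 to 4.64 CPM in young samples.

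Acyl chain remodelling genes had 2 of 4 higher and 2 lower in old cells. Lpcat1, a lysophosphatidylcholine acyltransferase, was the most even of them across samples. It had 99.7, 128 and 130.2 CPM in the old samples, against 93.0, 104 and 85.9 CPM in the young samples, and old sample 1 lay below young sample 2. Its log2 fold change was 0.34 (SE 0.31) with a 95% interval of −0.36 to 1.04. Lpcat3, which favours polyunsaturated chains, had 14.3, 85.9 and 25.1 CPM in the old samples, against 25.1, 25.8 and 55.6 CPM in the young samples, with the highest value in old sample 2. Lpgat1, named for its action on lysophosphatidylglycerol, had 41.6, 12.6 and 63.1 CPM in the old samples, against 52.3, 53.2 and 48.3 CPM in the young samples, with the lowest value in old sample 2.

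Lpcat2, a relative of Lpcat1 known from leukocytes where it makes platelet-activating factor, was the member whose samples differed most. It had 0.374, 26.8 and 0.293 CPM in the old samples, against 0.124, 41.5 and 54.4 CPM in the young samples. Old samples 1 and 3 and young sample 1 were under 1 CPM and the other 3 samples were at 26.8 CPM or more. Its log2 fold change was −1.81 (SE 1.93), against −6.57 without old sample 2, with unadjusted p = 0.0229 in edgeR's quasi-likelihood test.

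Phospholipases were divided, with 5 of 10 higher and 5 lower in old cells and a median log2 fold change of 0.03. Among phospholipases A2, Pla2g15, a lysosomal enzyme that also transfers acyl chains, had 26.5, 7.19 and 3.22 CPM in old samples 1, 2 and 3, against 34.5, 56.4 and 57.8 CPM in young samples 1, 2 and 3 (ENSMUSG00000031903; chromosome 8, 106150399 to 106164715, plus strand, GRCm38). The old samples spread 8.22-fold, the young samples lay within 1.68-fold of each other, and all old samples lay below the young ones. The log2 fold change was −2.01 (SE 0.84), or 0.248-fold, with unadjusted p = 0.0403 and adjusted p = 0.888 in edgeR's quasi-likelihood test. With each sample left out in turn it ran from −3.25 to −1.56, with unadjusted p from 0.00233 to 0.109 by edgeR, under 0.05 for Pla2g15 without old sample 1 or young sample 1 and above it in the other 4 cases.

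Pla2g4a, the cytosolic enzyme that frees arachidonate for eicosanoids, had 109.8, 44.9 and 62.0 CPM in the old samples, against 39.5, 40.2 and 45.7 CPM in the young samples. Old sample 1 was highest, and old sample 2, at 44.9 CPM, lay below young sample 3, at 45.7 CPM. For Pla2g4a the log2 fold change was 0.79 (SE 0.47), against 0.36 without old sample 1. Pla2g6, a calcium-independent enzyme, had 6.18 to 41.4 CPM in old and 15.0 to 33.1 CPM in young samples, and Pla2g12a, of the secreted class, had 1.37 to 6.18 CPM in old and 2.21 to 3.20 CPM in young samples.

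Among phospholipases C, 3 of 4 were higher in old cells. Plcg1, the isoform that receptor tyrosine kinases such as VEGF receptors activate, had 286, 128 and 259 CPM in old samples 1, 2 and 3, against 126, 123 and 110.3 CPM in young samples 1, 2 and 3 (ENSMUSG00000016933; chromosome 2, 160731300 to 160775760, plus strand, GRCm38). Old samples 1 and 3 stood well above the young samples, which lay within 1.15-fold of each other, and old sample 2 was just above them. The log2 fold change was 0.90 (SE 0.35), or 1.87-fold, with unadjusted p = 0.0288 and adjusted p = 0.888 in edgeR's quasi-likelihood test. With each sample left out in turn it ran from 0.69 to 1.18, with unadjusted p from 0.00324 to 0.0938 by edgeR, under 0.05 for Plcg1 when old sample 2 was left out and above it in the other 5 cases. Markers of endothelium, 5 genes all with counts in every sample, summed to 2849, 2212 and 2493 CPM in old samples 1, 2 and 3 and to 1646 to 1750 CPM in young samples, the same order among old samples as for Plcg1, and their part in this result was not tested.

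Plcb4, an isoform driven by G protein-coupled receptors, had 133, 165 and 297 CPM in the old samples, against 148, 135 and 103 CPM in the young samples. Its highest value was in old sample 3, and the log2 fold change of 0.62 (SE 0.36) was 0.21 without that sample. Plcb1, of the same class, had 25.8 to 32.9 CPM in old and 14.9 to 28.1 CPM in young samples. Plcg2, the isoform of blood cells, had 12.0, 9.73 and 2.59 CPM in the old samples, against 6.39, 28.4 and 34.5 CPM in the young samples. Young samples 2 and 3 were the highest, and the log2 fold change was −1.51 (SE 0.96) with a 95% interval of −3.70 to 0.67. Summed over the 4 genes, phospholipases C had 459, 335 and 585 CPM in the old samples, against 309, 304 and 263 CPM in the young samples, and each old sample exceeded all young samples. Plcg1 and Plcb4 made up most of each sum.

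Of the phospholipases D, Pld1, found on endosomes and other inner membranes, had 40.3 to 156 CPM in old and 67.0 to 137 CPM in young samples, and Pld2, found at the plasma membrane, had 29.8 to 59.3 CPM in old and 25.4 to 65.2 CPM in young samples. The highest Pld1 value was in old sample 1 and the lowest were in old samples 2 and 3. Without old sample 1, its log2 fold change was −1.33, from edgeR's quasi-likelihood fit with unadjusted p = 0.0185, against −0.36 (SE 0.59) with all samples.

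Genes of messenger turnover and transfer had 3 of 4 lower in old cells and a median log2 fold change of −0.50. Dgkz, a kinase that ends diacylglycerol signals by making phosphatidic acid, had 43.8, 65.2 and 76.1 CPM in old samples 1, 2 and 3, against 172, 119 and 81.3 CPM in young samples 1, 2 and 3 (ENSMUSG00000040479; chromosome 2, 91932824 to 91975864, minus strand, GRCm38). All old samples lay below the young ones, by 76.1 against 81.3 CPM at the nearest. The log2 fold change was −1.01 (SE 0.41), or 0.498-fold, with unadjusted p = 0.0365 and adjusted p = 0.888 in edgeR's quasi-likelihood test. With each sample left out in turn it ran from −1.24 to −0.70, with unadjusted p from 0.0227 to 0.166 by edgeR, under 0.05 for Dgkz without old sample 3 or young sample 3 and above it in the other 4 cases. The summed level of the 7 fibroblast markers, like the levels of Dgkz, Lpin2 and Pla2g15, was below the young range in all old samples, as were 5 of the 7 markers by themselves. The sum was 2281 to 2465 CPM in the old samples and 6866 CPM in young sample 1, where Dgkz was highest. Lpin2 and Pla2g15 instead had their lowest young values in young sample 1, at 65.6 and 34.5 CPM. The part of these markers in those results was not tested.

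Dgka, a diacylglycerol kinase known from T cells, had 123, 31.7 and 18.7 CPM in the old samples, against 41.0, 54.3 and 27.3 CPM in the young samples. Its ages overlapped, and the direction rested on old sample 1, since the log2 fold change of 0.50 (SE 0.72) was −0.70 without it. Dgke, which prefers diacylglycerol with arachidonate, is not a member and was looked at after Dgkz was seen. It had 71.8, 75.1 and 120.1 CPM in the old samples, against 49.5, 60.4 and 33.98 CPM in the young samples, with all old samples above the young ones and a log2 fold change of 0.89 (SE 0.43). The other diacylglycerol kinases tested outside the members, Dgkd, Dgkh and Dgkq, had ages that overlapped. Their log2 fold changes were 0.07, 0.01 and −0.65.

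Inpp5d, which encodes the phosphatase SHIP1 that acts on the lipid product of PI3-kinase in blood cells, had 12.0, 80.4 and 68.6 CPM in the old samples, against 58.3, 130.1 and 185 CPM in the young samples. Old sample 1 was the lowest and young sample 3 the highest, and the log2 fold change was −1.21 (SE 0.69). Pitpna, which carries phosphatidylinositol between membranes, had 204, 206 and 131 CPM in the old samples, against 124, 182 and 236 CPM in the young samples. Its means were 181 ± 42.7 CPM in old and 181 ± 55.8 CPM in young cells (SD, n = 3 each), a log2 fold change within 0.01 of 0 (SE 0.33) with a 95% interval of −0.76 to 0.75.

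**Figure D3:**
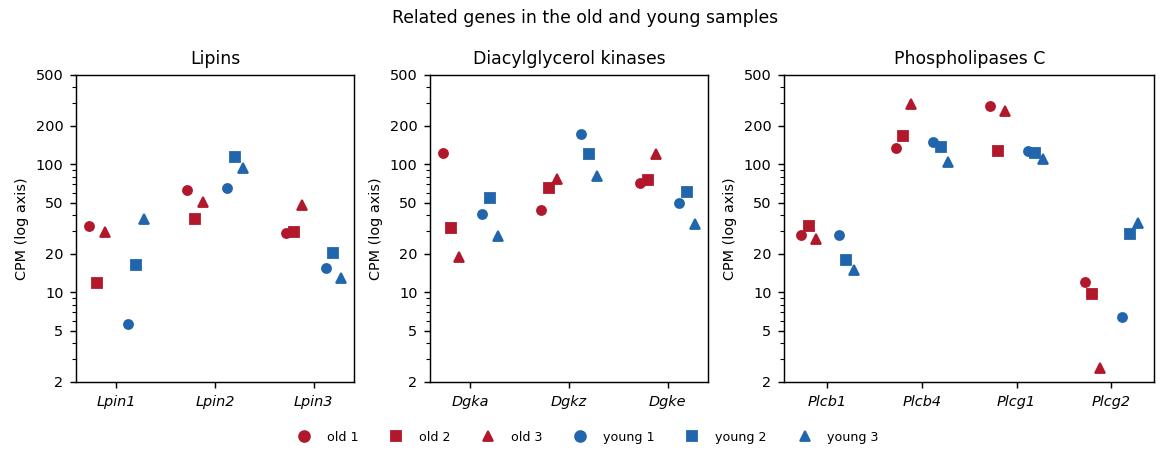
CPM on a log axis of lipins, diacylglycerol kinases and phospholipases C in each sample, with old samples in red left of young samples in blue. Old samples lay below young ones for Lpin2 and Dgkz and above them for Lpin3, Dgke and Plcg1. Lpin3 and Dgke are not members and were chosen after values were seen, and the other diacylglycerol kinases are not shown.

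Synthesis and breakdown were then set against each other. Of 15 synthesis genes tested, 10 were higher and 5 lower in old cells, with a median log2 fold change of 0.31, while breakdown genes had 5 higher and 5 lower with a median of 0.03. The median over all genes tested was 0.02. The mean log2 CPM of synthesis genes was 4.24, 5.21 and 4.88 in old samples 1, 2 and 3, against 4.16, 4.79 and 5.10 in young samples 1, 2 and 3. For breakdown genes it was 5.47, 4.70 and 4.46 in the old samples and 4.97, 5.27 and 5.19 in the young samples. The ages overlapped for both.

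The difference, synthesis minus breakdown, was −1.23, 0.51 and 0.43 log2 units in old samples 1, 2 and 3, against −0.80, −0.48 and −0.08 in the young samples. Old sample 1 lay below all young samples and old samples 2 and 3 lay above all of them, so the old mean of −0.10 ± 0.98 (SD, n = 3) and the young mean of −0.46 ± 0.36 (SD, n = 3) did not separate. Old minus young was 0.36, against 0.93 without old sample 1 and 0.06 without old sample 2. Old sample 1 also had the highest sum of pericyte and smooth muscle markers, at 1950 CPM. Old samples 2 and 3 had 852.5 and 1147 CPM and young samples 615 to 928 CPM. The markers did not share this order. Myh11, Acta2 and Tagln were highest in old sample 1, at 668, 453 and 92.3 CPM. Rgs5 and Abcc9 were highest in old sample 3, at 470 and 161 CPM, and Pdgfrb in young sample 1, at 276 CPM. Kcnj8 was lowest in old sample 1, at 56.8 CPM. All 7 of those markers had counts in every sample, and their part in the difference of synthesis and breakdown was not tested.

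Sums of CPM, in which abundant genes weigh most, gave another view. Synthesis genes summed to 979, 1069 and 1105 CPM in the old samples, against 768, 849 and 970 CPM in the young samples, with all old samples above the young ones and a ratio of means of 1.22. Etnk1 and Cds2 made up 54.0% of that sum in old and 51.4% in young cells. The summed lymphatic markers were likewise higher and the summed fibroblast markers lower in all old samples, by the values given above, and their part in this sum was not tested. Breakdown genes summed to 854, 479 and 735 CPM in the old samples and 528, 600 and 553 CPM in the young samples, which overlapped, with a ratio of 1.23. Synthesis over breakdown was 1.15, 2.23 and 1.50 in old samples and 1.46, 1.42 and 1.75 in young samples, so the young range lay within the old one.

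**Figure D4:**
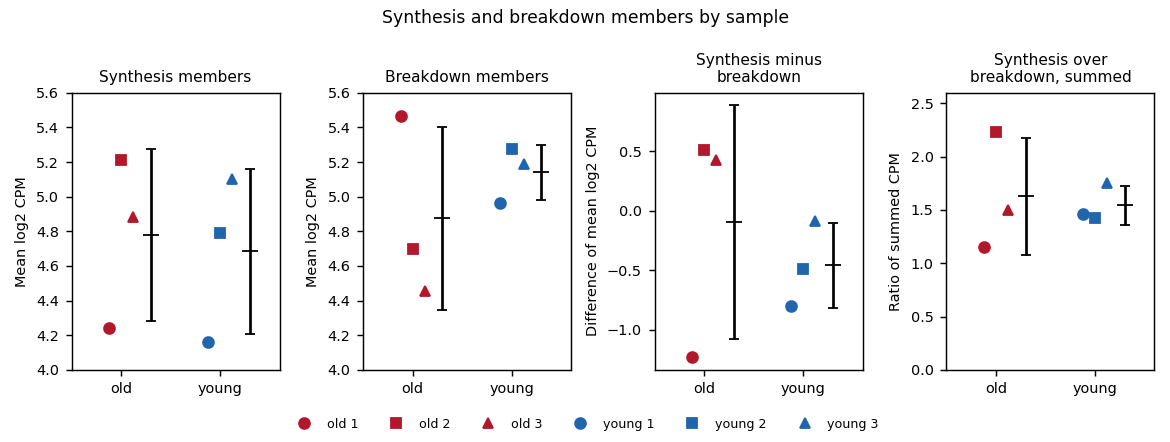
Mean log2 CPM of 15 synthesis and 10 breakdown genes, their difference, and the ratio of summed CPM, in each old and young sample, with the mean and SD of 3 samples beside the points. Old sample 1 lay apart from old samples 2 and 3 in breakdown and in the difference, and the ages overlapped in all 4 panels.

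Lpcat2, Inpp5d and Plcg2, members known from blood cells and chosen here after their values were seen, were set beside the macrophage markers of the same samples. The marker score, the mean log2 CPM of 15 genes, was 3.24, 5.51 and 4.71 in old samples 1, 2 and 3 and 4.11, 7.04 and 7.14 in young samples 1, 2 and 3. Of those markers 14 of 15, all but Mrc1, had a negative log2 fold change in old cells, and the median of the 15 was −1.56. All 3 members had their highest values in young samples 2 and 3, where the score was highest. Lpcat2 was under 1 CPM in the 3 samples with the lowest scores. Inpp5d was in the same order as the score in all 6 samples, while Plcg2 was lowest in old sample 3. Dgka, described above as known from T cells, was highest in old sample 1, at 123 CPM, where the macrophage score was lowest. In that sample the lymphocyte and plasma cell markers summed to 57.6 CPM, with 0 counts of Cd3e and 2 of Cd3g. Their sums were 34.8 to 57.6 CPM in old and 8.60 to 61.8 CPM in young samples. Lpcat1 stayed between 85.9 and 130.2 CPM across the whole range of scores. The part of other cells in these members' age differences was not tested.

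**Figure D5:**
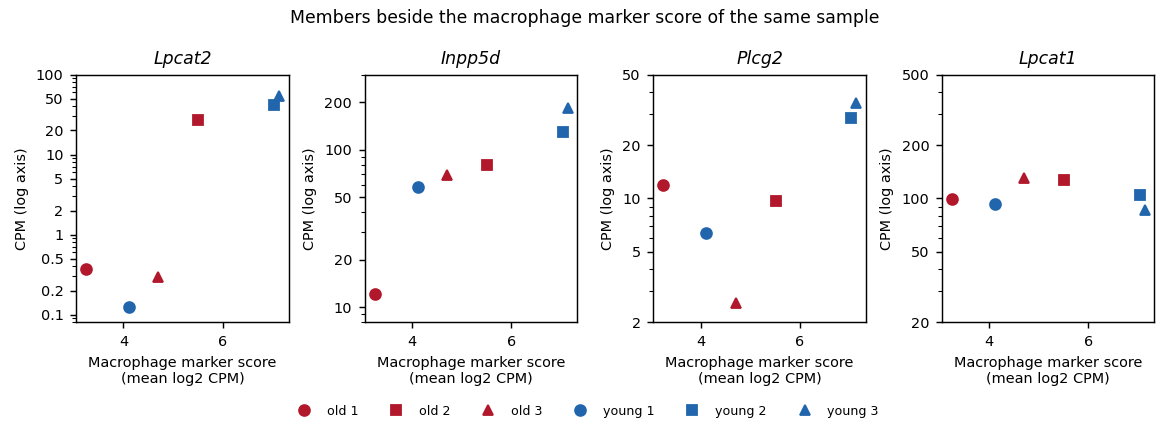
CPM on a log axis of Lpcat2, Inpp5d, Plcg2 and Lpcat1 against the macrophage marker score of the same sample, for old (red) and young (blue) samples. Lpcat2, Inpp5d and Plcg2 were highest in young samples 2 and 3, which had the highest scores of 7.04 and 7.14, and Lpcat1 kept within 1.52-fold.

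Other genes of phospholipid metabolism, 73 by list of which 70 were in the table and 62 were tested, had 27 higher and 35 lower in old cells, with a median log2 fold change of −0.08. None passed after adjustment in edgeR, and 3 had an unadjusted p under 0.05, or 4.84%, beside 5.56% of all genes, and for 9, or 14.5%, the ages did not overlap, beside 12.0% of all genes. Inpp5a, which removes a phosphate from the inositol trisphosphate that phospholipase C releases, had 56.3, 40.2 and 97.8 CPM in the old samples, against 13.8, 17.7 and 17.8 CPM in the young samples. The lowest old sample was 40.2 CPM and the highest young sample 17.8 CPM, and the log2 fold change was 1.98 (SE 0.55) with unadjusted p = 0.00606 and adjusted p = 0.752 by edgeR. Pcyt1b, the second gene for the enzyme of Pcyt1a, had 0 counts in each old sample and 14, 37 and 26 counts in young samples. By edgeR the unadjusted p was 0.00378 and the adjusted p 0.6865. Pcyt1b passed the filter on low counts only through the young samples, at 0.869 to 1.88 CPM. No conclusion is drawn from that p or from the size of the difference. Plcb2, the phospholipase C of blood cells, had 0.748, 1.24 and 3.47 CPM in the old samples, against 0.124, 59.5 and 41.3 CPM in the young samples, so its young level came from samples 2 and 3, which also had the highest macrophage marker scores. In the last steps of the choline and ethanolamine branches, 3 genes were added after their values were seen. Cept1 had 22.5 to 25.8 CPM in old and 18.6 to 30.9 CPM in young samples, Chpt1 had 27.2 to 36.9 CPM in old and 35.3 to 52.9 CPM in young samples and Selenoi had 22.8 to 51.3 CPM in old and 19.8 to 61.7 CPM in young samples, and none had ages that did not overlap. In the cardiolipin branch, Taz, which remodels cardiolipin, was chosen after its values were seen. Taz had 5.31, 28.4 and 22.5 CPM in the old samples, against 55.8, 31.5 and 56.1 CPM in the young samples. All old samples lay below the young ones, with a log2 fold change of −1.35 (SE 0.72). Pgs1, Ptpmt1 and Tamm41, of the same branch and also added after values were seen, had ages that overlapped. Their log2 fold changes were 1.18 (SE 0.88), 0.24 (SE 0.97) and 0.07 (SE 0.93).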

How the data were processed

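RNA of CD45-CD31+PDPN+ cells was extracted, amplified linearly and sequenced, per the labels' protocols. FastQC, Salmon and the build mm10 are named, without versions or roles, in the submitters' processing notes. The deposited table holds estimated counts per gene, which were whole numbers and needed no rounding. Gene annotation and strandedness are not given in these sources, so reads of a gene and an antisense partner cannot be told apart, which touches Lpcat3 (9.10% of its 31-base words opposite to other genes) and Pcyt1a (8.76%). Symbols and positions came from GENCODE M21 (GRCm38), which named 22738 of 22964 genes. Total RNA was amplified, so levels per kilobase assume even coverage along transcripts.

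All genes were fitted in edgeR 4.0.16 (R 4.3.3): filterByExpr (minimum count 10, minimum total 15, 15394 genes kept), TMM on the kept genes' totals, and a robust two-sided quasi-likelihood test on age. P-values were adjusted by Benjamini-Hochberg over all genes tested at 0.05, and intervals are 95%. Log2 CPM used a prior count of 2. Levels per kilobase used merged exon length. DESeq2 1.42.0 and limma-voom (limma 3.58.1), other scalings and filters, and leaving out each sample were alternatives.

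Members and lists were chosen with earlier results of these data known, so no p was computed for a list. Per-sample values were given for members with an unadjusted p under 0.05, for up to 3 per role with the largest absolute log2 fold change at 5 CPM or more, and for the 2 highest per kilobase in each role. Pla2g4a was added after its values were seen. From other lists, genes with an unadjusted p under 0.05 were named, apart from 1 that is not reported here, and the rest are said to have been added. Among the marker lists, medians of the log2 fold change were 0.50 for lymphatic endothelium, 0.55 for endothelium, 0.69 for pericytes and smooth muscle, −1.17 for fibroblasts, 1.01 for lymphocytes and plasma cells, −0.26 for neurons and glia and 0.54 for erythroid cells and platelets.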

Additional observations from a re-analysis of the deposited data

How the results depend on the processing

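No member was called in any of the 14 alternatives fitted. Over all genes, calls numbered 0 in edgeR, 130 in DESeq2, 3 in limma-voom and 0 to 1 with each sample left out. The members at an unadjusted p under 0.05 numbered 3, and 1 to 6 with each sample left out (1 each without old sample 3, young sample 2 and young sample 3, and 6 without old sample 1). The median log2 fold change of synthesis genes ran from −0.09 (without old sample 2) to 0.61 (without young sample 3), and that of breakdown genes from −0.10 to 0.29 with a sample left out and −0.21 with limma-voom. Library size as the only scaling moved the median of all genes from 0.02 to −0.12 that of breakdown genes to −0.13 and, by edgeR, the unadjusted p of Plcg1 to 0.0531 and that of Lpin2 to 0.0368. That of Dgkz was 0.0670 in limma-voom. Synthesis minus breakdown stayed positive, at 0.06 to 0.93 with each sample left out, and was 0.03 as a log2 ratio of summed CPM and 0.38 with the members of at least 20 CPM, both chosen after seeing the data.

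Pla2g12a had no value with a mean of at least 50 counts required. Of 33 members, 22 kept their direction in all alternatives, and 25 of 461 values turned. Pitpna was 0.0291 with DESeq2 size factors, 0.0290 in DESeq2 and 0.0204 with the replicate number as a block, and −0.21 to 0.22 with samples left out. Limma-voom gave −0.60 for Ptdss2, −0.14 for Lpcat3, −0.18 for Pla2g12a and −0.0279 for Dgka. The replicate block gave −0.0730 for Ptdss1, −0.35 for Ptdss2, −0.13 for Lpcat3 and −0.14 for Pla2g12a. With each sample left out, values ran from −0.13 to 1.14 for Lpin1 (turned without young sample 1), −1.21 to 0.33 for Pla2g6 (turned without old sample 2 or 3 or young sample 2), −0.70 to 0.92 for Dgka (turned without old sample 1), −0.11 to 1.01 for Chka (turned without old sample 2), −0.44 to 2.10 for Pcyt2 (turned without old sample 2), −0.0904 to 1.10 for Ptdss2 (turned without old sample 2), −0.85 to 0.70 for Lpcat3 (turned without old sample 2), −0.92 to 0.0305 for Lpgat1 (turned without old sample 2), −0.79 to 0.52 for Pla2g12a (turned without old sample 2) and −0.65 to 0.66 for Ptdss1 (turned without old sample 3). The cause was not tested. The replicate block pairs same-numbered samples, which the labels do not say are pairs. Deviations of same-numbered samples correlated at 0.0792, 0.0533 and −0.0119. Old sample 1 correlated best with young sample 1, old sample 2 with young sample 3 and old sample 3 with young sample 2. Correlations this small cannot decide whether the samples are paired. Under that block edgeR called 0 genes and counted 3 members at an unadjusted p under 0.05, which were Inpp5d at 0.0142, Pisd at 0.0231 and Pla2g15 at 0.0381, while Plcg1 was at 0.0516 and Dgkz at 0.0785. The common biological coefficient of variation of 90.1% limits single genes.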

Other observations

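Flippases and scramblases, which move phospholipids between the leaflets of a membrane, had 10 of 22 tested genes higher and 12 lower in old cells, with a median log2 fold change of −0.10. None passed after adjustment in edgeR. Plscr3, a scramblase of mitochondria, had 93.1, 91.7 and 72.1 CPM in the old samples, against 36.1, 42.5 and 54.7 CPM in the young samples, with a log2 fold change of 0.95 (SE 0.40) and unadjusted p = 0.0417 in edgeR's quasi-likelihood test. Every old sample lay above every young one for Plscr3, as for 5.56% of all genes.

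Genes that act on the arachidonate released by phospholipases A2 had 9 of 19 higher and 10 lower in old cells, with a median log2 fold change of −0.39. The ages did not overlap for 5 of the 19, or 26.3%, beside 12.0% of all genes. In 3 of these the old samples were above, as for 5.56% of all genes, and in 2 below, as for 6.44%. Ptgds, which makes prostaglandin D2 and is known from the meninges, had 123, 1750.1 and 896 CPM in the old samples, against 297, 212 and 215 CPM in the young samples, so its log2 fold change of 1.94 (SE 0.72) came from old samples 2 and 3, while old sample 1 was below all young samples. Tbxas1, the thromboxane synthase of platelets and macrophages, had 8.53, 15.0 and 9.91 CPM in the old samples, against 13.6, 31.4 and 68.7 CPM in the young samples, a log2 fold change of −1.77 (SE 0.77). Chosen after their values were seen, the synthase Ptges and the prostaglandin importer Slco2a1 were above the young range in all old samples, at 82.6 to 92.7 CPM in old and 39.7 to 66.2 CPM in young samples and at 90.7 to 119 CPM in old and 30.8 to 69.5 CPM in young samples. Hpgd, which inactivates prostaglandins and was also chosen after its values were seen, had 4.12, 24.6 and 49.99 CPM in the old samples, against 87.6, 96.7 and 63.8 CPM in the young samples, with every old sample below every young one. None of these passed after adjustment in edgeR.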
